A study of Mus musculus with 18 samples.

Results

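The regions described here are peaks of H3K4me3, a mark of active and poised promoters, that coincided with peaks of H3K9me3, a mark of heterochromatin. They were chosen by overlap of deposited peaks: H3K4me3 peaks of the GFP library on chromosomes 1 to 19 that shared at least 1 base with a H3K9me3 peak of the GFP library, leaving out chromosome 4 from 145000001 to 148000000. The rule found 1001 regions among 22844 GFP H3K4me3 peaks of these chromosomes, or 4.38% (4.12 to 4.66), and the whole GFP H3K4me3 list held 23808 peaks. They are called doubly marked regions below, and the 21843 peaks without H3K9me3 are called the other H3K4me3 peaks.

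The study used mouse embryonic fibroblasts (MEFs) of a mixed B6;129 background with a conditional allele of the tumour suppressor gene Rb. Cre cells were infected with Adeno-Cre, an adenovirus that delivers the recombinase and deletes the allele. GFP cells were infected with Adeno-GFP, which leaves the allele in place. Cells of both groups carried the same conditional allele, had received adenovirus, were labelled no 4F, and had been expanded for at most 3 passages. Chromatin immunoprecipitation and sequencing gave 1 library for each of 4 marks in each condition, labelled biological replicate 3, so that differences between libraries could not be set against replicate spread and no test was run. The GFP input was labelled replicate 1 and the Cre input replicate 3. The sources used here do not say whether Cre and GFP libraries came from the same embryos, and no gene readout was used that would check the cell type or the deletion.

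H3K4me3 is laid down at promoters by SET1 and MLL complexes and usually stands beside acetylated histones. H3K9me3 is written by enzymes such as SETDB1, is bound by HP1 proteins, and covers repeats, retroviral elements and arrays of zinc finger genes. The marks are rarely found at the same promoter. They are known to coincide in bulk data at imprinting control regions, where the parental alleles carry opposite marks. An overlap of peaks from many cells does not show that both marks lay on the same chromosome copy, in the same cell.

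Intervals are exact (Clopper-Pearson) 95% intervals of shares, and ratios of shares carry log-normal 95% intervals. Only counting error is in them, and each peak counts as independent although neighbours are not. The read depth of the libraries is unknown from the lists. The 8 lists held 3985 to 48778 peaks over all chromosomes, and the shortest, Cre H3K9me3, was set against 10885 peaks in GFP H3K9me3. The absence of a peak means that nothing passed the authors' threshold there. Scores are the authors' own, start near 50 and rank peaks within a list. Positions are in build NCBIM37, counted from 1. No annotation of that build was used, so that regions carry no gene names.

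The first question was how closely the marks coincided. The H3K9me3 peaks covered most of each H3K4me3 peak rather than its edge. H3K9me3 lay over 81.6% of the 1.60 Mb of doubly marked H3K4me3 peaks, and over a median of 91.4% of a region's width, with quartiles of 70.1% and 100%. At least 50% of the width was covered in 886 regions, all of it in 366, and less than 10% in 13. The centres of the peaks lay a median of 258.5 bases apart, and 729 regions had centres within 500 bases. A single H3K9me3 peak was involved in 964 regions, and 2 in the other 37. Since the rule asked for overlap, these values describe the regions and support nothing else.

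Seen from the H3K9me3 list, 964 of the 9242 GFP H3K9me3 peaks of these chromosomes lay in doubly marked regions, or 10.4%. Their median width was 1395 bases, against 1018 for the other H3K9me3 peaks, and their median score was 129.4 against 77.6. A wide peak has more chance of an overlap, and its part in the difference was not tested. The region just inside the rule, on chromosome 15 at 89238728 to 89239403, shared 1 base with a H3K9me3 peak, and the next shared 40 and 41 bases. The nearest H3K4me3 peak outside it, on chromosome 15 at 89237331 to 89238185, ended 6 bases short of one, and the next nearest lay 10 and 19 bases away.

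**Figure D1:**
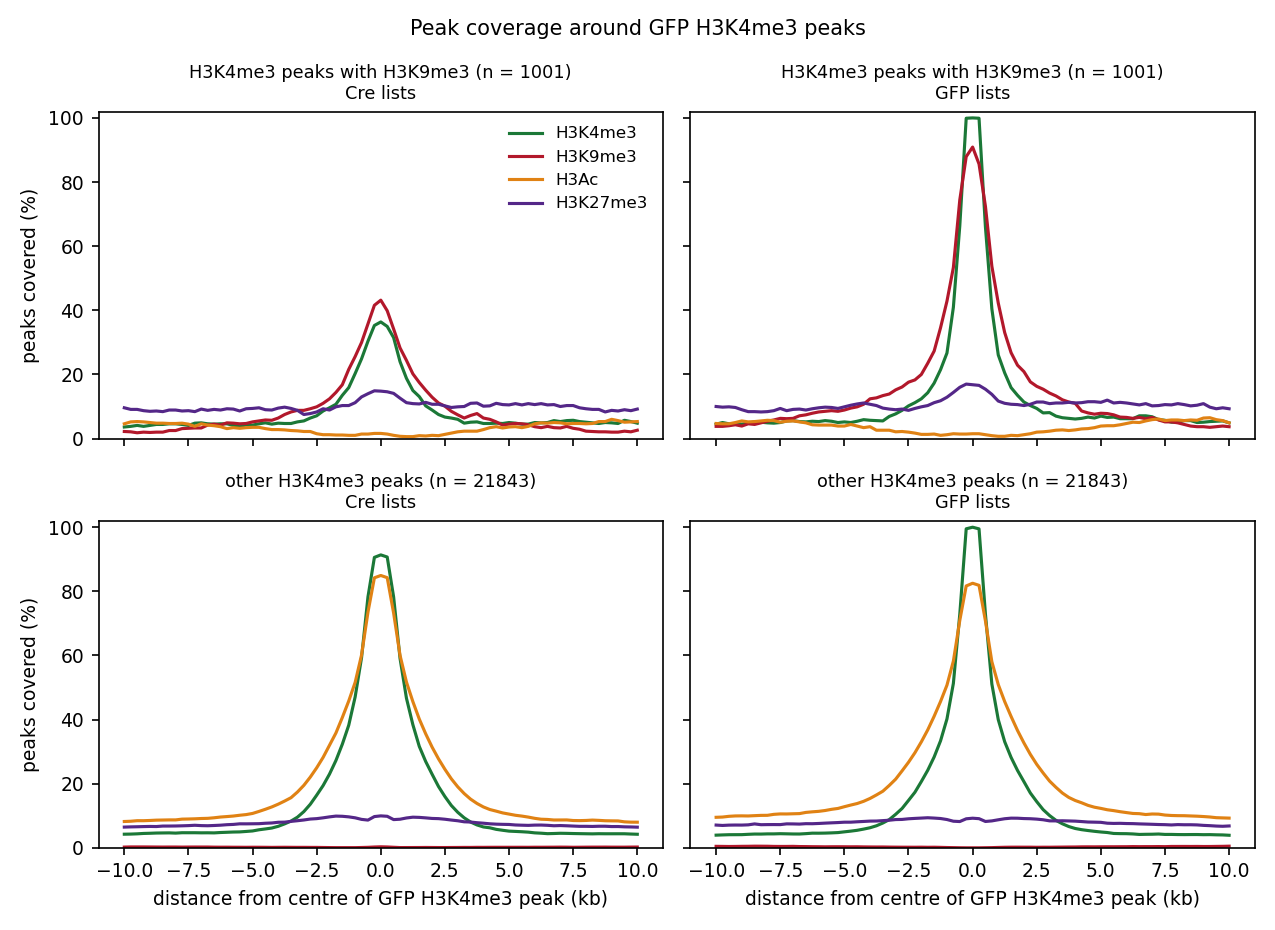
Share of GFP H3K4me3 peaks (vertical axis, percent) at which a peak of each mark covered a given distance (horizontal axis, kb) from the centre of the H3K4me3 peak, for the doubly marked regions (top) and the other H3K4me3 peaks (bottom), in Cre lists (left) and GFP lists (right). At the centre, H3Ac covers 1.60% of the doubly marked regions in Cre and 1.499% in GFP cells, and 84.9% of the other peaks in Cre and 82.5% in GFP cells.

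The next comparison concerned acetylated H3 (H3Ac), which the rule did not use. Nearly all doubly marked regions lacked it. A GFP H3Ac peak overlapped 18 of the 1001 doubly marked regions, 1.80% (1.07 to 2.83), against 18434 of the 21843 other H3K4me3 peaks, 84.4% (83.9 to 84.9), where the share over all tested peaks was 80.8%. The ratio of the shares was 0.0213 (0.0135 to 0.0337). In the Cre lists, H3Ac overlapped 19 of the same regions, 1.90%, against 86.5% of the other peaks and 82.8% of all tested peaks. The plot of coverage around the peak centres shows a dip rather than a flat line. At the centres of doubly marked regions H3Ac covered 1.60% of regions in Cre and 1.499% in GFP cells, and 10 kb to the right 5.29% in Cre and 4.90% in GFP cells.

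The difference in acetylation was present in each band of H3K4me3 score. Doubly marked regions had lower H3K4me3 scores, with a median of 115.6 against 647.0 for the other peaks, and weak peaks carry H3Ac less often. Between scores of 500 and 1500, 2 of 93 doubly marked regions carried H3Ac, 2.15% (0.262 to 7.55), against 98.6% of 4164 other peaks. Between 50 and 100 the values were 1 of 421 regions, 0.238%, against 47.3% of 3754 other peaks. At scores of 1500 or more, 9 of 24 doubly marked regions carried H3Ac, 37.5% (18.8 to 59.4), against 99.96% of 7684. If the other peaks had the score bands of the doubly marked regions, 66.1% of them would carry H3Ac.

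**Figure D2:**
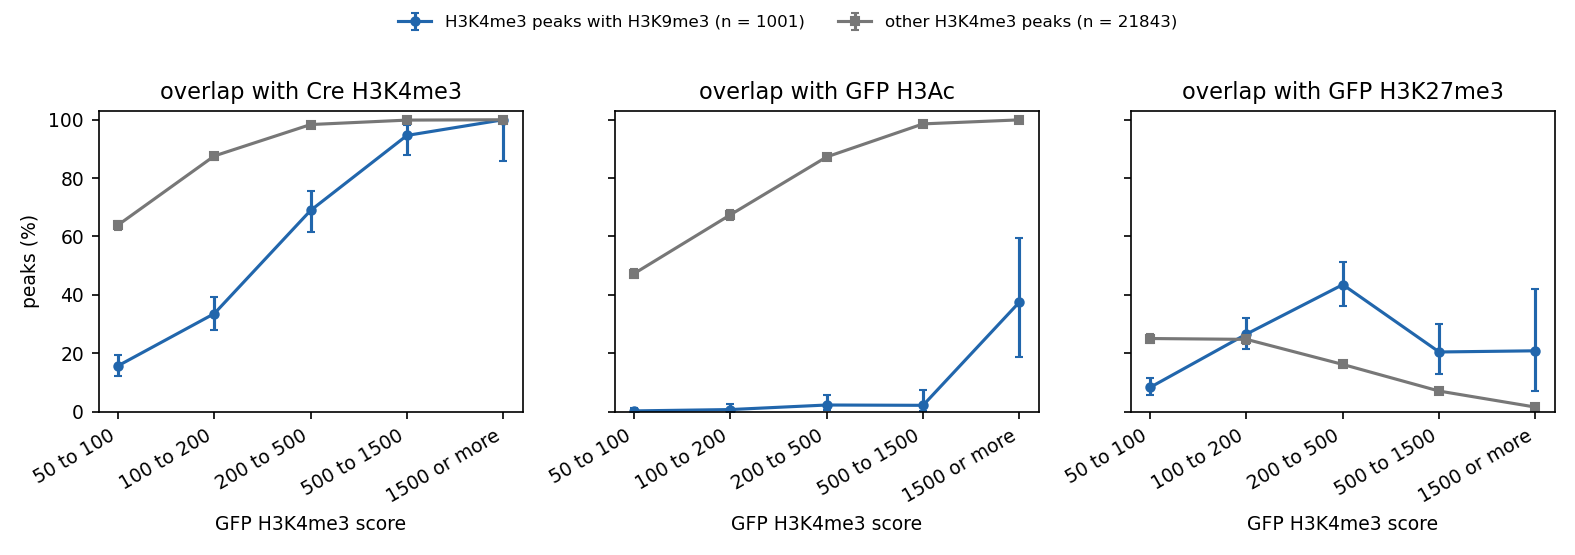
Share of peaks (vertical axis, percent, with exact 95% intervals) that overlap a Cre H3K4me3, GFP H3Ac or GFP H3K27me3 peak, in 5 bands of the GFP H3K4me3 score (horizontal axis), for doubly marked regions (blue circles) and the other H3K4me3 peaks (grey squares). The blue H3Ac points stay at or under 2.26% in the 4 lower bands.

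The 18 acetylated regions differed from the rest in their scores. Their H3K4me3 scores were high, with a median of 1407 against 113.7 for the 983 regions without H3Ac. Their H3K9me3 scores were low, with a median of 67.4 against 143.2. H3K9me3 covered a median of 22.9% of their width, against 92.0% in the regions without H3Ac, so that the marks mostly adjoined. Only 1 of the 18 was covered by H3K9me3 over at least 50% of its width. All 18 overlapped a Cre H3K4me3 peak, and 14, 77.8% (52.4 to 93.6), a Cre H3Ac peak. The shares over all tested H3K4me3 peaks were 89.6% and 82.8%. A Cre H3K9me3 peak overlapped 4 of the 18, 22.2% (6.41 to 47.6), against 49.2% of all doubly marked regions.

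The 5 doubly marked regions with the highest H3K4me3 score all belonged to these 18. On chromosome 13 from 5860751 to 5867287, H3K4me3 and H3Ac scored 3100 each in Cre cells and 3100 each in GFP cells, where H3K9me3 scored 65.7 over 1271 bases. On chromosome 1 from 173274254 to 173277683, H3K4me3 scored 3100 in Cre and 3100 in GFP cells, H3Ac 2760 in Cre and 3100 in GFP cells, and the GFP H3K9me3 peak 104.0. The other three lay on chromosome 10 at 79451356 to 79455732 and on chromosome 16 at 56035240 to 56038717 and from 32277839 to 32280108. None of the 5 overlapped a Cre H3K9me3 peak.

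Acetylated regions that kept both methyl marks in Cre cells were 4 in number, and they are named after their values were seen. On chromosome 1 from 58561844 to 58563820, H3K9me3 scored 273.2 in Cre and 346.1 in GFP cells, the highest GFP value of the 18, and H3K4me3 scored 3100 in Cre and 1973 in GFP cells. On chromosome 17 from 12933622 to 12936601, H3K9me3 scored 102.4 in Cre and 53.4 in GFP cells, and H3Ac 341.4 in Cre and 641.6 in GFP cells. The remaining pair lay on chromosome 6 at 37821467 to 37824281 and on chromosome 19 at 3083142 to 3085402, with Cre H3K9me3 scores of 59.9 and 52.7. Scores of different lists are not on 1 scale, so that these pairs show presence and not change.

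The widths of the peaks differed in a way that depended on the score. Set against all other peaks, doubly marked regions were narrower, with a median H3K4me3 width of 1214 bases (quartiles 888 and 1844) against 1386 (950 and 2124). Among peaks without H3Ac they were wider, with a median of 1206 bases over 983 regions against 860 over 3409 others. At equal score the doubly marked regions were wider than the other peaks in every band. Between scores of 500 and 1500 the median was 3333 bases against 1478.5, and at 1500 or more it was 4942 against 2401. Between 200 and 500 the median was 2000 against 1166.5, and between 50 and 100 it was 833 against 749.5. The Spearman correlation of score and width was 0.93 across the 1001 regions and 0.87 across the 21843 other peaks, where score and width of a peak come from the same reads. A wide peak has more chance of meeting a H3K9me3 peak, and how much of the difference this gives was not tested.

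H3K4me3 and H3K9me3 scores were weakly related. Across the 1001 regions the Spearman correlation of the scores was 0.32, across the 789 without H3K27me3 it was 0.44, and the points share the 2 libraries and the width of the region. The 5 regions with the highest H3K9me3 score were all wide, from 6176 to 8275 bases, had no peak of H3Ac or H3K27me3 in either condition, and had both methyl marks in Cre cells.

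These leading regions were as follows. On chromosome 17 from 17278929 to 17285845, H3K9me3 scored 2135 in Cre and 3214 in GFP cells, and H3K4me3 1750 in Cre and 2406 in GFP cells. On chromosome 17 from 17220888 to 17229162, H3K9me3 scored 2240 in Cre and 2631 in GFP cells, and H3K4me3 2124 in Cre and 1845 in GFP cells. The GFP H3K9me3 peak covered every base of these 2 regions, which lie in 1 cluster on chromosome 17. On chromosome 16 from 98229112 to 98235287, H3K9me3 scored 1105 in Cre and 2539 in GFP cells, and H3K4me3 926.0 in Cre and 3016 in GFP cells. On chromosome 7 from 24887291 to 24894359 the H3K9me3 scores were 1543 in Cre and 2101 in GFP cells, and on chromosome 17 at 95214315 to 95220756 they were 985.4 in Cre and 1998 in GFP cells.

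The widest region spanned 13800 bases on chromosome 7 at 13423476 to 13437275, and H3K9me3 covered 98.0% of it. An acetylated H3K4me3 peak with a score of 3100, from 13419131 to 13423170, ended shortly before it. The Cre library had 1 H3K4me3 peak of 17857 bases over both, from 13418979 to 13436835, and 2 Cre H3K9me3 peaks over the doubly marked stretch, with scores of 927.5 and 1242. The Cre H3Ac peak ended at 13421600 and the GFP H3Ac peak at 13421784, so that acetylation stopped before the H3K9me3 began in both conditions. Of the 5 widest regions, those not yet named lay on chromosome 5 at 139046168 to 139055177, with 9010 bases, and on chromosome 9 at 22080898 to 22087861, with 6964 bases. On chromosome 10 from 78525374 to 78531602, H3K4me3 scored 2842 in Cre and 2710 in GFP cells and H3K9me3 1404 in Cre and 1884 in GFP cells.

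Acetylated promoter-like peaks lay at some distance from the doubly marked regions. The 983 regions without H3Ac were a median of 25.2 kb from the nearest H3K4me3 peak with H3Ac, with quartiles of 11.96 and 67.4 kb, and the 3409 other H3K4me3 peaks without H3Ac were a median of 37.99 kb away, with quartiles of 9.70 and 103.2 kb. Up to a score of 1500 the spread narrowed with the score for the doubly marked regions and widened for the others. Between 50 and 100 the quartiles were 16.6 and 108.6 kb for the regions and 9.70 and 97.2 kb for the others. Between 500 and 1500, 91 doubly marked regions lay a median of 14.7 kb away, with quartiles of 9.84 and 21.8 kb, against 60.1 kb (6.84 and 224.1) for 59 other unacetylated peaks. Neighbours within 2 kb were rare. An acetylated H3K4me3 peak lay within 2 kb of 15 of the 983 regions, 1.53% (0.857 to 2.50), against 14.6% (13.5 to 15.9) of the 3409 others. Within 10 kb the shares were 19.8% (17.4 to 22.5) against 25.4% (23.9 to 26.9). By score the directions differed, with 13.3% against 25.5% between 50 and 100 and 31.2% against 24.4% between 200 and 500.

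Doubly marked regions were found on every autosome, unevenly. Chromosomes 7 and 17 held the most, 98 and 96 regions. As a share of the chromosome's H3K4me3 peaks they were most frequent on chromosome 17, with 8.26% (6.74 to 9.995), chromosome 12, with 7.32% (5.72 to 9.21), and chromosome 13, with 6.39% (4.98 to 8.04). The lowest shares were 2.62% (1.61 to 4.01) on chromosome 19 and 2.66% (1.67 to 4.00) on chromosome 14. The share of the H3K9me3 peaks that lay in doubly marked regions had another order. On chromosome 12, 58 of 892 H3K9me3 peaks lay in doubly marked regions, 6.50%, and on chromosome 11, 60 of 310 did, 19.4%. Stretches near the start of the chromosomes were not favoured: 12 regions lay in the first 5 Mb, 1.20%, against 2.05% of the other H3K4me3 peaks.

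**Figure D3:**
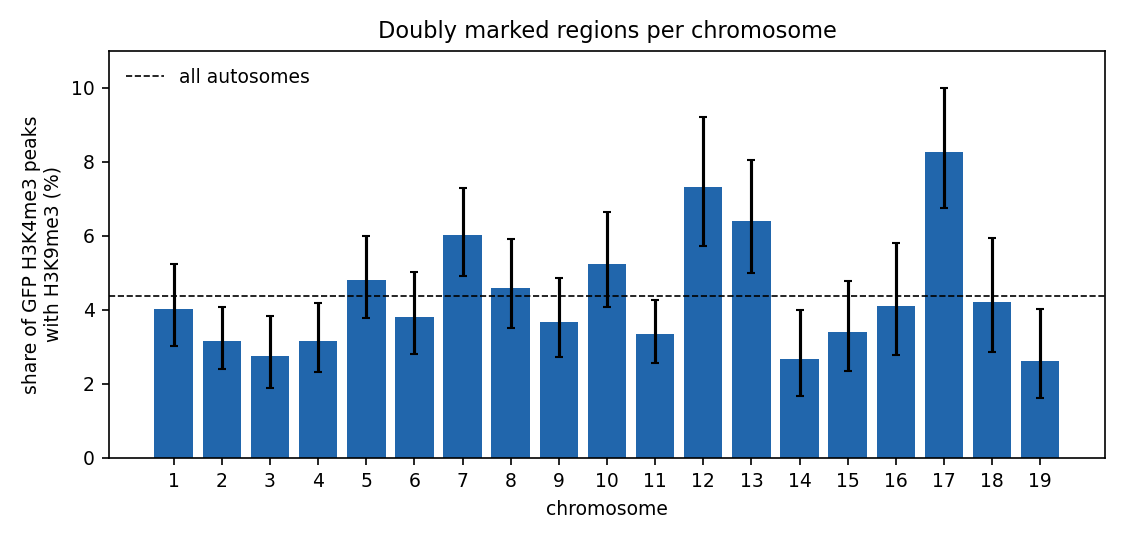
Share of the GFP H3K4me3 peaks of each chromosome (horizontal axis) that overlap a GFP H3K9me3 peak (vertical axis, percent, with exact 95% intervals). The dashed line is the share over all autosomes, 4.38%, and chromosomes 7, 12, 13 and 17 have intervals wholly above it.

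Part of the regions lay in clusters, and 543 stood alone. With neighbours within 100 kb joined, the 1001 regions formed 694 groups, of which 134 held 2 to 4 and 17 held 5 or more. Another doubly marked region lay within 10 kb of 258 of them, 25.8% (23.1 to 28.6), and a doubly marked region lay within 10 kb of 1.62% (1.46 to 1.80) of the other H3K4me3 peaks. Some neighbours were pieces along 1 H3K9me3 peak: 141 regions shared their H3K9me3 peak with another. Of all 1001 regions, 117, or 11.7%, had another within 10 kb and shared no H3K9me3 peak with one. The windows of 1 Mb with the most regions were on chromosome 10 from 81 to 82 Mb with 21, on chromosome 17 from 22 to 23 Mb with 20, and on chromosome 7 from 30 to 31 Mb with 14. These 55 regions held no H3Ac and no H3K27me3 in GFP cells. The same windows held 48, 32 and 52 GFP H3K4me3 peaks in all, of which 27, 10 and 29 were other H3K4me3 peaks with H3Ac. The median H3K9me3 scores of the regions there were 540.3, 720.1 and 439.4.

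Acetylated peaks lay between the regions of the 3 largest groups, at shares near that of the other H3K4me3 peaks as a whole, 84.4%. On chromosome 10 from 81319983 to 81690056, 16 doubly marked regions stood with 8 other H3K4me3 peaks between them, of which 8 carried H3Ac. On chromosome 17 from 17109331 to 17457643, 12 doubly marked regions stood with 7 other peaks, 6 of them acetylated. On chromosome 5 from 110104398 to 110558769, 11 stood with 12 others, 11 of them acetylated. Among the 17 groups of 5 or more, 3 had no acetylated peak between their regions. They were on chromosome 13 at 12911068 to 12956846, with no other H3K4me3 peak between 6 regions, on chromosome 11 at 121716516 to 121830916, with 2 other peaks, and on chromosome 6 at 124510096 to 124571663, with 1 other peak. A group of 8 regions on chromosome 7 at 30889051 to 30948639 had 3 other peaks, 1 of them acetylated.

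Regions in groups had stronger H3K9me3 and less H3K27me3 than solitary ones. The median H3K9me3 score was 481.7 in groups of 5 or more, 206.5 in groups of 2 to 4 and 114.7 in regions on their own. GFP H3K27me3 overlapped 7 of 123 regions in groups of 5 or more, 5.69% (2.32 to 11.4), 64 of 335 in groups of 2 to 4, 19.1% (15.0 to 23.7), and 141 of 543 solitary regions, 26.0% (22.3 to 29.9). Both methyl marks were present in Cre cells in 56.9% (47.7 to 65.8), 37.0% (31.8 to 42.4) and 21.4% (17.99 to 25.1) of the same classes. GFP H3Ac overlapped 0, 6 and 12 regions.

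H3K27me3, the Polycomb mark of silent developmental genes, was a further mark on part of the regions. GFP H3K27me3 overlapped 212 doubly marked regions, 21.2% (18.7 to 23.8), against 11.9% (11.5 to 12.4) of the other H3K4me3 peaks and 12.3% of all tested peaks, a ratio of 1.77 (1.56 to 2.01). Lower scores went with this difference: with the score bands of the doubly marked regions, 21.2% of the other peaks would carry H3K27me3. By band the directions differed. Between 50 and 100 the share was 8.31% (5.86 to 11.4) against 25.04%, and between 200 and 500 it was 43.5% (36.1 to 51.1) against 16.2%. In the Cre list, H3K27me3 overlapped 17.7% of the doubly marked regions, 12.6% of the others and 12.8% of all tested peaks.

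Unacetylated H3K4me3 peaks are often bivalent, with H3K27me3, and the doubly marked regions were less so. Among peaks without H3Ac, H3K27me3 overlapped 210 of 983 doubly marked regions, 21.4% (18.8 to 24.1), against 1759 of 3409 others, 51.6% (49.9 to 53.3). Between scores of 500 and 1500 it overlapped 19 of 91 doubly marked regions against 47 of 59 others.

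The 212 regions with H3K27me3 carried weaker H3K9me3 than the other 789. Their median H3K9me3 score was 93.6 against 163.6, and H3K9me3 covered a median of 69.4% of their width against 97.8%. Their H3K4me3 scores were higher, with a median of 187.5 against 101.4. In Cre cells H3K27me3 was present at 157 of the 212, 74.1% (67.6 to 79.8), and H3K9me3 at 47, 22.2% (16.8 to 28.4). The shares over all tested H3K4me3 peaks, with or without GFP H3K27me3, were 12.8% and 2.52%. Other H3K4me3 peaks with GFP H3K27me3 were not compared on this point. Of the 789 regions without GFP H3K27me3, 445 had Cre H3K9me3, 56.4% (52.9 to 59.9). The 3 regions with the highest GFP H3K27me3 score, named after their values were seen, lay on chromosome 1 at 173013012 to 173015658, on chromosome 4 at 109647972 to 109649753 and on chromosome 7 at 52424174 to 52426421. Their H3K27me3 scores were 3100, 3100 and 3196 in Cre and 3230, 3225 and 3154 in GFP cells. The first had a H3K9me3 score of 511.2 in Cre and 405.1 in GFP cells, and the other two had no Cre H3K9me3 peak.

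The last comparison was of the same places in the Cre lists. Fewer than 1 in 3 doubly marked regions had both marks in Cre cells: 310 of 1001, 31.0% (28.1 to 33.9), where the share over all tested H3K4me3 peaks was 1.51%. The rule largely sets that contrast, since the other peaks lacked GFP H3K9me3, and 36 of those 21843 had both Cre marks. Another 86 regions had Cre H3K4me3 alone, 8.59%, 182 had Cre H3K9me3 alone, 18.2%, and 423 had neither, 42.3% (39.2 to 45.4). Of these 423, 92 overlapped a Cre peak of H3Ac or H3K27me3, so that 331 regions, 33.1%, had no peak in any Cre list.

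**Figure D4:**
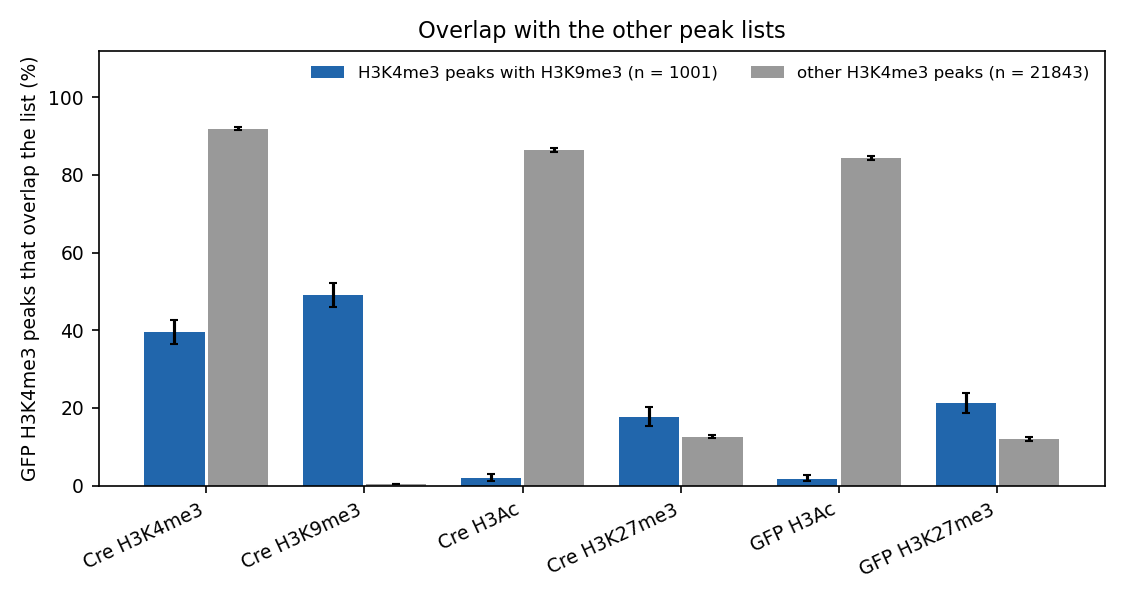
Share of GFP H3K4me3 peaks (vertical axis, percent, with exact 95% intervals) that overlap each list named on the horizontal axis, for the doubly marked regions (blue) and the other H3K4me3 peaks (grey). GFP H3Ac overlaps 1.80% of the blue and 84.4% of the grey peaks, and Cre H3K4me3 39.6% and 91.9%.

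H3K4me3 was found again in Cre cells less often than at other peaks. A Cre H3K4me3 peak overlapped 396 doubly marked regions, 39.6% (36.5 to 42.7), against 91.9% (91.5 to 92.2) of the other GFP H3K4me3 peaks and 89.6% of all tested, a ratio of 0.431 (0.399 to 0.465). With the score bands of the doubly marked regions, 81.0% of the other peaks would have been found again. The shares lay far apart at low scores, 15.7% against 63.9% between 50 and 100 and 33.6% against 87.6% between 100 and 200. They lay closer from 200 upward, 68.9% against 98.4% between 200 and 500, and 94.6% (87.9 to 98.2) against 99.9% between 500 and 1500. At 1500 or more all 24 doubly marked regions and all 7684 others had a Cre peak. Set against unacetylated peaks only, the shares were 38.5% (35.4 to 41.6) against 62.5% (60.9 to 64.2), or 69.1% with the score bands of the doubly marked regions. Only 5 of the 396 regions had a Cre H3K4me3 peak that was shared with a neighbouring acetylated H3K4me3 peak.

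H3K9me3 of the doubly marked regions was found again more often than other H3K9me3. A Cre H3K9me3 peak overlapped 492 doubly marked regions, 49.2% (46.0 to 52.3), where the share over all tested H3K4me3 peaks was 2.52%, a value fixed by the rule since the other peaks lacked GFP H3K9me3. The H3K9me3 peaks themselves allow a comparison. Of the 964 GFP H3K9me3 peaks in doubly marked regions, 481 overlapped a Cre H3K9me3 peak, 49.9% (46.7 to 53.1), against 13.7% (13.0 to 14.5) of the 8278 other GFP H3K9me3 peaks and 17.5% of all tested. With the score bands of the doubly marked regions below 1500, 29.5% of the other H3K9me3 peaks would have been found again. Between 50 and 100 the share was 23.4% (19.05 to 28.2) against 8.37% (7.67 to 9.10), between 100 and 200 it was 43.2% (37.5 to 49.1) against 20.1% (18.3 to 22.1), and between 200 and 500 it was 75.9% (69.4 to 81.6) against 49.1% (44.5 to 53.6). Peaks with H3K4me3 were wider than the rest, and the part of width in this difference was not tested.

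Whether a region was doubly marked again in Cre cells went with both of its GFP scores. Among the 185 regions with both scores at 200 or more, 161 had both marks in Cre cells, 87.0% (81.3 to 91.5), and 7 had neither. Among the 515 regions with both scores under 200, 66 had both, 12.8% (10.1 to 16.0), and 325 had neither, 63.1% (58.8 to 67.3). Where only the H3K9me3 score reached 200, Cre H3K9me3 was present at 68.8% and Cre H3K4me3 at 30.2% of 192 regions. Where only the H3K4me3 score did, the shares were 33.0% and 61.5% of 109 regions. Of the 396 regions with Cre H3K4me3, 310 had Cre H3K9me3, 78.3% (73.9 to 82.2), against 182 of the 605 without Cre H3K4me3, 30.1% (26.5 to 33.9).

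**Figure D5:**
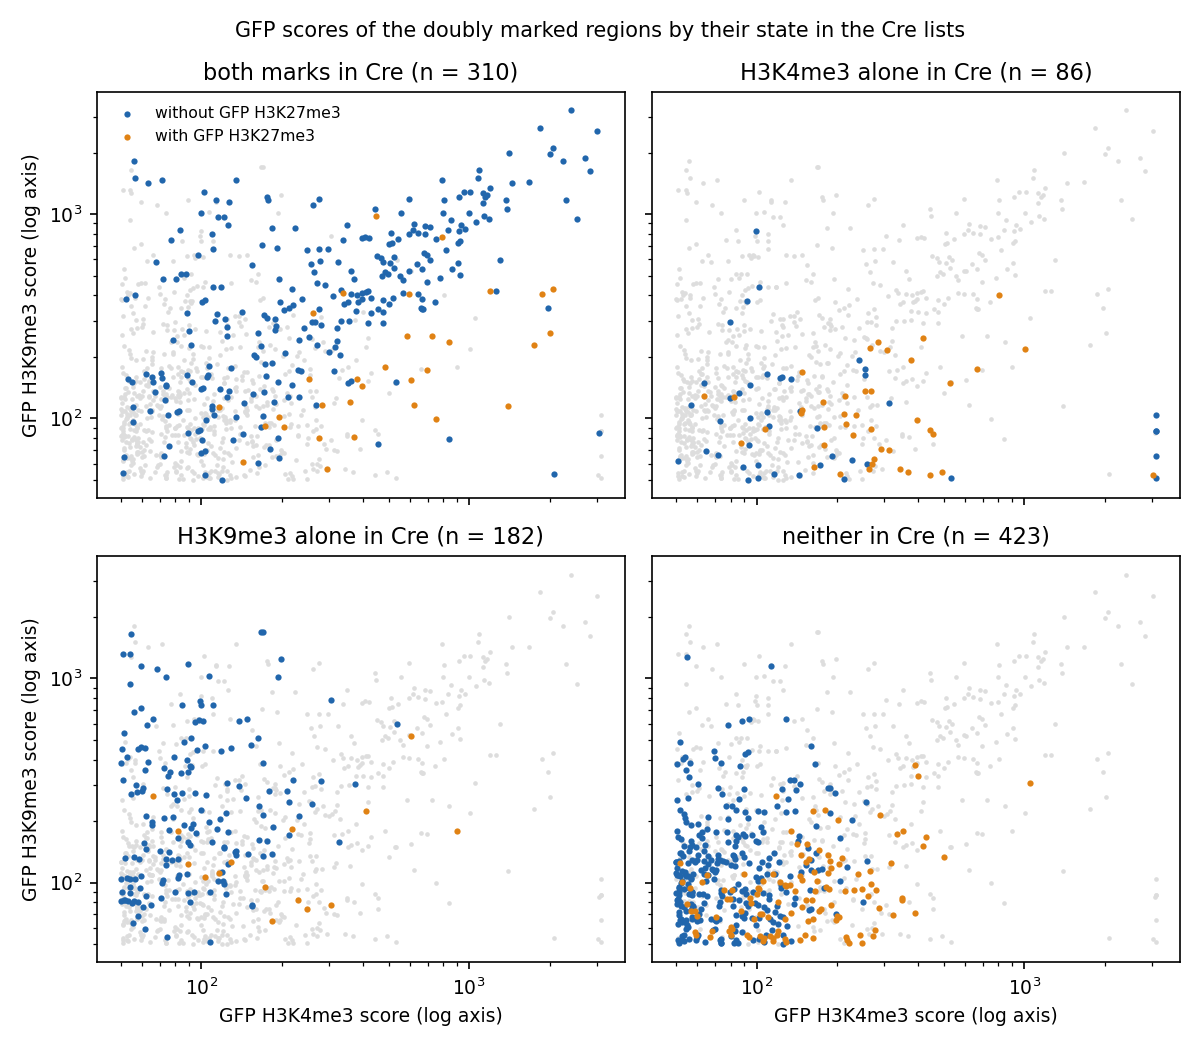
GFP H3K4me3 score (horizontal, log axis) and GFP H3K9me3 score (vertical, log axis) of the doubly marked regions, with 1 panel for each state in the Cre lists; coloured points are the regions of that state, orange where GFP H3K27me3 overlaps, and grey points are all 1001. The 310 regions with both marks in Cre fill the upper right, and the 423 with neither lie mostly at low scores.

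Widths were compared at regions with a peak in both conditions. H3K4me3 peaks were paired within each set, so that a paired Cre peak could also overlap a GFP peak of the other set. Where 1 Cre and 1 GFP H3K4me3 peak could be paired in this way, the median width was 1614 bases in Cre and 1842.5 in GFP cells over 334 doubly marked regions. Of these, 142, or 42.5%, were wider in Cre cells. The other H3K4me3 peaks went the other way, with 1686 bases in Cre and 1506 in GFP cells and 70.2% of 16254 pairs wider in Cre cells. The sets were not matched for score or H3Ac here, and the part of either in this difference was not tested. H3K9me3 peaks were narrower in Cre cells inside and outside the doubly marked regions. Over 344 pairs of H3K9me3 peaks in doubly marked regions the median width was 1243.5 bases in Cre and 1888.5 in GFP cells, and 20.6% were wider in Cre cells. Over 896 pairs of other H3K9me3 peaks it was 836.5 bases in Cre and 1344 in GFP cells, and 15.2% were wider in Cre cells.

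Strong regions without a Cre H3K4me3 peak were few. Other peaks of equal score, nearly all of them with H3Ac, lacked one more rarely still, but unacetylated ones did not. Between scores of 500 and 1500, a Cre H3K4me3 peak overlapped 88 of 93 doubly marked regions, 94.6%, against 4159 of 4164 other peaks, 99.9%. At 1500 or more, every peak of both sets had one. Among peaks without H3Ac between 500 and 1500, the shares were 86 of 91 regions, 94.5% (87.6 to 98.2), and 56 of 59 others, 94.9% (85.9 to 98.9). Of the 117 regions with a GFP H3K4me3 score of 500 or more, 101 had both marks in Cre cells, 86.3% (78.7 to 92.0), and 5 had no Cre H3K4me3 peak. These 5 are named after their values were seen. On chromosome 11 from 95498928 to 95501776 and on chromosome 10 at 42326584 to 42329379, only H3K27me3 was found in Cre cells, with scores of 619.3 and 2108, against 1675 and 1572 in GFP cells. On chromosome 17 from 29239569 to 29246085, on chromosome 10 at 79472015 to 79475294 and on chromosome 17 at 56631392 to 56634879, Cre H3K9me3 remained, with scores of 199.0, 102.7 and 123.2. Their GFP H3K4me3 scores were 903.2, 608.2 and 539.0.

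The first of those 3 regions lay beside a strong acetylated domain. GFP H3K4me3 ran in 5 peaks from 29227306 to 29246085, the last of them the doubly marked region of 6517 bases. In Cre cells 1 H3K4me3 peak ran from 29227087 to 29238347, with a score of 3100, and stopped short of the region. GFP H3K9me3 covered 29238692 to 29246218 with a score of 179.0. That H3K9me3 peak also covered part of a smaller doubly marked region beside it, from 29238488 to 29239565, which had Cre H3K9me3 and no Cre H3K4me3. A further doubly marked region, from 29235877 to 29237766, had a Cre H3Ac peak with a score of 121.7 and no GFP H3Ac peak.

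H3Ac without a GFP counterpart was found at 5 doubly marked regions in Cre cells, that one included. They were 5 of the 983 regions without GFP H3Ac, 0.509% (0.165 to 1.18), against 813 of 3409 other unacetylated H3K4me3 peaks, 23.8% (22.4 to 25.3), where the share over all tested peaks without GFP H3Ac was 18.6%. The other four lay on chromosome 5 at 110335264 to 110336743, on chromosome 7 at 87937823 to 87940319, on chromosome 6 at 128880833 to 128882243 and on chromosome 1 at 60604219 to 60605163. Their Cre H3Ac scores were 67.5, 60.8, 107.9 and 66.7, close to the lower end of the list. All 5 regions had Cre H3K4me3.

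The same rule applied to the Cre lists gave fewer regions, which also mostly lacked H3Ac and carried H3K27me3 less often. There were 482 Cre H3K4me3 peaks with Cre H3K9me3 among 21755, 2.22% (2.02 to 2.42), against 1001 of 22844, 4.38%, in GFP cells. With both lists of each mark reduced to equal numbers of top-scoring peaks, the counts were 482 in Cre and 611 in GFP cells. Of the H3K9me3 lists, unequal in length, 491 of 3152 Cre peaks lay in such regions, 15.6% (14.3 to 16.9), against 964 of 9242 GFP peaks, 10.4% (9.81 to 11.1). This share was not recomputed at equal list lengths, and among GFP peaks it rose with the H3K9me3 score. Between 50 and 100, 346 GFP H3K9me3 peaks lay in doubly marked regions and 5941 outside, and between 500 and 1500, 107 lay in them and 44 outside. Cre H3Ac overlapped 15 of the 482, 3.11% (1.75 to 5.08), against 87.4% of the other Cre H3K4me3 peaks. Cre H3K27me3 overlapped 8.30% (5.99 to 11.1) of the 482, against 12.9% (12.5 to 13.4) of the other Cre peaks. Without matching for score the direction was opposite in GFP cells, where GFP H3K27me3 overlapped 21.2% of the doubly marked regions and 11.9% of the others. With the score bands of the doubly marked regions, the other GFP peaks would reach 21.2% too. GFP H3K27me3 was also less frequent where the GFP H3K9me3 score was 200 or more, 4 of 192 and 26 of 185 regions with H3K4me3 scores under and from 200. Where it was under 200, the counts were 107 of 515 and 75 of 109. The part of the shorter Cre H3K9me3 list in the difference between conditions was not tested.

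Of the 482 Cre regions, 307 overlapped a GFP doubly marked region, 63.7% (59.2 to 68.0), and 309 of the 1001 GFP regions overlapped a Cre one, 30.9% (28.0 to 33.8). Among the 175 Cre regions without such a counterpart, 86 had neither mark in GFP cells, 52 had GFP H3K9me3 alone and 37 had GFP H3K4me3 alone. They were mostly weak, with a median Cre H3K4me3 score of 88.0 against 134.7 for all 482.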

How the data were processed

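The data were 8 peak lists, 1 for each of H3K4me3, H3K9me3, H3Ac and H3K27me3 in Cre and GFP cells. Per the labels, the antibodies were Abcam ab8580 (H3K4me3) and Millipore products for the other marks. Per the submitters' processing notes, the tools included MACS 1.4.1 (a peak caller), BWA, bedtools 2.16.2 and SAMtools 0.1.18, and the build was NCBIM37. Which tool made which file, the input used as control, duplicate handling and read depth are not given in the sources used here. The score deposited by the authors with each peak has no stated unit. It depends on depth and control and was used only within a list. Peaks were called per library.

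Overlap was at least 1 base. Members and lists were chosen with earlier results of these data known. Score bands began at 50, 100, 200, 500 and 1500. A score-weighted share of the other peaks is the mean of their shares per band, weighted by the regions' numbers. Regions were named by rule (5 highest by each score, 5 widest, 5 with most shared bases, 5 strongest with both Cre marks, 3 densest windows), except where stated. The planned description of gene starts was not run, since the gene tables at hand are on another build. Overlap code was tested on simulated data. Alternatives were a 50% overlap, a minimum score of 100, merging within 1000 bases, equal list lengths, keeping the window on chromosome 4, 1 value per group within 100 kb and, added after seeing the data, leaving out the 3 densest windows. Scripts ran in Python 3.11.15 with pandas 2.3.3, NumPy 2.4.6, SciPy 1.17.1 and, for figures, matplotlib 3.10.9.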

Additional observations from a re-analysis of the deposited data

Results flagged for a closer look

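Doubly marked peaks also lay outside the chromosomes and stretches covered above, in data that no comparison used. Their counts are given as a description, with no test. On chromosome 4 from 145000001 to 148000000, 56 of 95 Cre and 74 of 123 GFP H3K4me3 peaks overlapped H3K9me3 of the same condition, 58.9% (48.4 to 68.9) and 60.2% (50.9 to 68.9). On chromosome X the counts were 9 of 699 in Cre and 26 of 770 in GFP cells. On sequences outside the numbered chromosomes, X and Y they were 6 of 67 in Cre and 6 of 67 in GFP cells.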

How the results depend on the processing

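Over the 53 values recomputed under 7 alternatives, 31 stayed within the 95% interval of the reported share or median, or within 1.5 times a reported count, and 22 did not. With a score of at least 100 in every list, the regions numbered 418 and the Cre regions 251, and the median width was 1835 bases. The shares were then 0.478% for GFP H3Ac, 17.9% for GFP H3K27me3, 51.9% for Cre H3K4me3, 58.9% for Cre H3K9me3 and 45.2% for both Cre marks. With equal numbers of top-scoring peaks, the values in the same order were 611 GFP and 482 Cre regions and 1491 bases, then 0.491%, 16.4%, 51.6%, 65.8% and 44.7%. With each mark covering at least 50% of the H3K4me3 peak the shares were 0%, 15.2%, 35.0%, 44.8% and 27.3%, where 0 of 886 regions allows an H3Ac share of up to 0.339%. Merging peaks gave a median width of 1351.5 bases, and 1 value per group gave a GFP H3K27me3 share of 26.8%. Leaving out the 3 densest windows, an alternative chosen after seeing the data, changed none of the values beyond these limits, and neither did keeping the chromosome 4 window. The other peaks carried H3Ac in 83.2% to 87.7% of cases under these settings. No paired analysis was possible because each mark had 1 library per condition. Unknown depth and the short Cre H3K9me3 list limit every comparison between conditions.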
